A study of Mus musculus with 24 samples.

Results

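Nuclear receptors are transcription factors that are switched by small lipophilic ligands, and 9 of their genes and the corepressor gene Ncor1 were examined in single erythroid progenitors of the mouse. The 10 genes were taken by symbol from the 49585 gene rows of the count table, and all 24 cells were used. They are Nr3c1 (the glucocorticoid receptor), Ppara (the fatty acid receptor PPAR-alpha), Rxra and Rxrb (the retinoid X receptors), Thra (thyroid hormone receptor alpha), Rara (retinoic acid receptor alpha), Nr1h2 (the oxysterol receptor LXR-beta), Nr2c1 and Nr2c2 (the orphan receptors TR2 and TR4) and Ncor1.

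The glucocorticoid receptor waits in the cytoplasm in a complex with HSP90 and its co-chaperones, enters the nucleus when it binds a glucocorticoid, and acts there as a dimer or through other factors. Glucocorticoids prolong the self-renewal of burst-forming units-erythroid (BFU-E), the earliest progenitors restricted to the red cell lineage, and agonists of PPAR-alpha have been reported to add to that effect. PPAR-alpha, LXR-beta, the thyroid hormone receptor and the retinoic acid receptor bind DNA as heterodimers with a retinoid X receptor, TR2 and TR4 bind direct repeats in fetal and embryonic globin promoters, and NCOR1 carries the histone deacetylase HDAC3 to receptors without an activating ligand.

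The data are transcriptomes of 24 cells labelled BFU-E, made by Smart-seq2, in which the polyadenylated RNA of a cell in a well is reverse transcribed over its full length and amplified by PCR, with no molecular identifiers. The cells came from fetal liver of C57/Bl6J mice at embryonic day 14.5. Mature red cells had been lysed, cells with lineage antigens, Sca-1, CD16/32 or CD41 depleted, and the rest sorted by CD117, CD71 and CD24 staining into 1 plate. The cells form 1 group with no treatment and no second genotype. The labels tie no cell to an embryo, and cells are not replicate animals, so the group is 1 sample and nothing was tested over cells. SD and intervals describe these cells and not other animals.

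Total counts ran from 876983 to 2155010 per cell, with a median of 1507638, and 4767 to 7349 genes per cell reached 5 counts, the threshold for detection used throughout. No pair of the 276 cell pairs held identical values. The 9 listed markers of BFU-E and erythroid progenitors, Kit, Myb, Gata1 and Klf1 among them, were each detected in at least 12 cells, and their summed level ran from 470 to 3869 CPM (counts scaled to a total of 1e6 per cell). Summed markers of other lineages ran from 0 to 1017 CPM for megakaryocytes, 0 to 8880 for myeloid cells, 0 to 674 for lymphoid cells, 0 to 279 for later erythroid cells and 2.97 to 1130 for hepatocytes. Of these lists, 1 of 6 megakaryocyte, 1 of 6 myeloid, 0 of 6 lymphoid, 1 of 6 later erythroid and 1 of 6 hepatocyte markers were detected in at least 12 cells. Of all protein-coding genes 26.1% reached that number. With 6 genes in a list, these numbers show no absence of a lineage. Pf4, Ppbp, Elane, Ly6c2, Cd3e, Cd79a and Serpina1a had 0 counts in every cell. In cells 1, 9 and 23 the summed myeloid markers exceeded the BFU-E markers (8880 against 862 CPM, 973 against 748 CPM and 2810 against 2114 CPM), and in cell 19 the lymphoid markers did (674 against 470 CPM). Values without these 4 cells are given beside some of the results that rest on them, not all, and the part of their identity in any result was not tested.

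The receptors share a DNA-binding domain of a pair of zinc fingers, and the helix at the foot of the first finger reads the DNA half-site. The coding stretch at the start of that helix is shown for 8 receptors because it is what makes them a family. Receptors that read alike could also exchange reads in the counting. The stretch comes from GENCODE M21 transcripts (GRCm38). The 18 bases from the start of the helix are in capitals, and 12 flanking bases stand on each side.
Ppara: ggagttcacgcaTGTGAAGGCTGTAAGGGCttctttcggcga
Rxra: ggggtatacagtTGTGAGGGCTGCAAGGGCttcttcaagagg
Rxrb: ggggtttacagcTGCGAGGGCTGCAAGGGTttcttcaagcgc
Thra: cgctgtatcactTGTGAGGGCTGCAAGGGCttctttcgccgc
Rara: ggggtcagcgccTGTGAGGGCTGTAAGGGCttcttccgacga
Nr1h2: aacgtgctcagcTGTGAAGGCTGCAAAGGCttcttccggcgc
Nr2c1: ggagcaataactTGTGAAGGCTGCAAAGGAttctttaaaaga
Nr2c2: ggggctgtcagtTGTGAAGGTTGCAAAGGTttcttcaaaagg

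Rxra and Thra were identical over all 18 bases in capitals, while Rara and Nr2c2 shared 13 of 18, the fewest of the 28 pairs. Over the finger region of 168 bases Rxra and Rxrb matched at 134 positions (79.8%), and Nr2c1 and Nr2c2 at 128 (76.2%). The longest run of bases shared by any pair of these transcripts was 29 bases, in Rxra and Rxrb, and Nr2c1 and Nr2c2 shared at most 15. Read length is not stated in the sources used here.

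The 10 genes ranged from 22 cells with Ncor1 to 0 with Ppara. The cutoff of 12 cells parted Nr2c2, in 12 cells, from Thra, in 11, and marks no gap. Ncor1, Rxrb, Nr1h2, Nr3c1 and Nr2c2 were each detected in at least 12 of 24 cells, which makes 5 of 10 genes; 26.1% of the 21734 protein-coding genes did so. Ppara was the single member detected in no cell, against 49.2% of protein-coding genes. Without cells 1, 9, 19 and 23, 4 of the 10 reached at least 12 of the 20 cells left, since Nr2c2 then stood at 9.

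**Figure D1:**
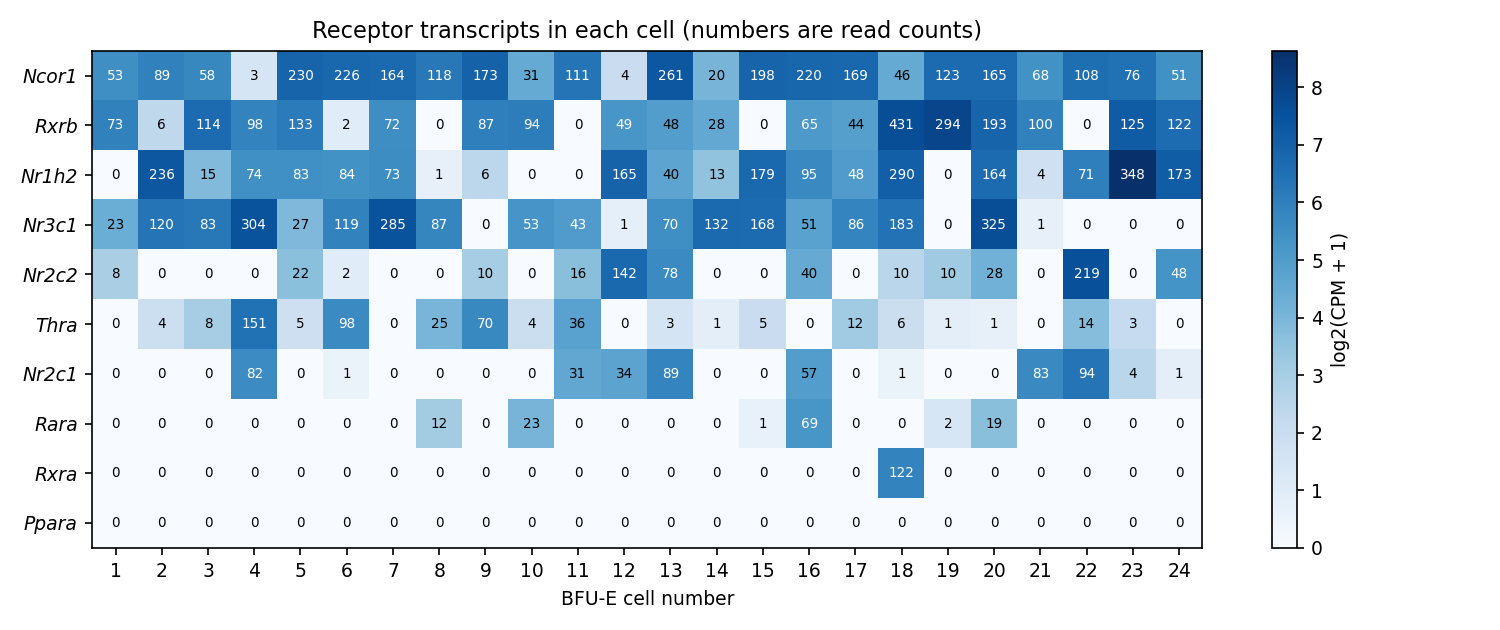
Heat map of the 10 genes (rows) in the 24 cells (columns, numbered as in their titles); colour gives log2(CPM + 1) and the number in each field is the read count. Ncor1 has counts in all 24 cells, Ppara in none, and Rxra in cell 18 alone, while Nr3c1 lacks detection in 7 cells, 5 of them among cells 19 to 24.

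Nr3c1 (ENSMUSG00000024431) reached detection in 17 of 24 cells (70.8%, with an exact binomial 95% interval of 48.9 to 87.4). Its level ran from 0 CPM through a median of 39.9 CPM to 197 CPM in cell 20, with 177 CPM in cell 7 and 175 CPM in cell 4 next, and averaged 55.5 ± 59.6 CPM (SD over 24 cells, as in all values that follow). In the detecting cells the counts lay clear of the threshold: none held 5 to 9 counts, and the lowest detecting cell had 13.98 CPM. The other 7 cells held 0 counts (5 cells) or 1 to 4 counts (2 cells), and whether they lacked the transcript was not tested. Those were cells 9, 12, 19, 21, 22, 23 and 24, with total counts of 876983 to 1670472. Nr3c1 was detected in 16 of the 20 cells that remain without cells 1, 9, 19 and 23, at 65.7 ± 60.3 CPM.

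The cells in which Nr3c1 was not detected lay mostly at one end of the plate. It was detected in 1 of 6 cells in plate rows G and H, against 16 of 18 cells in rows A to F. The median total count of these cells was 1232675 in rows G and H and 1570886 in rows A to F, and over all 24 cells the Spearman correlation of Nr3c1 with total counts was 0.46. Thra had a similar layout, with 1 of 6 cells in rows G and H against 10 of 18 in rows A to F. Rxrb and Ncor1 did not, with 5 of 6 and 6 of 6 cells in rows G and H against 14 of 18 and 16 of 18 in rows A to F. By plate column, Nr3c1 was detected in 6, 7 and 4 of 8 cells. The part of depth and plate position in these counts was not tested. After every cell was thinned to 876983 counts, Nr3c1 was detected in 17 cells. Thinning only removes reads, and all 17 detecting cells held 10 counts or more, so this number says nothing about the cells without detection.

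Ppara (ENSMUSG00000022383, GRCm38 chromosome 15, 85734983 to 85802819) had 0 counts in each of the 24 cells. The share of cells with at least 5 counts could be up to 14.2% by the exact binomial interval. With a floor of 3 counts for a count of 0, the level could still be up to 1.39 to 3.42 CPM in a single cell, depending on its depth, and 0.0825 CPM over the 36364096 counts of all cells together. The transcript of PPAR-alpha was thus not detectable at this depth in these freshly sorted cells. Of the other PPARs, Ppard was detected in 2 cells and Pparg had 0 counts throughout.

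Of 20 genes that PPAR-alpha controls in liver, 8 were detected in at least 12 cells, 7 in 1 to 11 and 5 in none. That is 40% in at least 12 cells against 26.1% of protein-coding genes, of which 49.2% were detected in none. Plin2, which coats lipid droplets, averaged 175 ± 143 CPM in 23 cells. Hadha and Acadm, enzymes of mitochondrial fatty acid oxidation, averaged 159 ± 104 and 105 ± 72.9 CPM, each in 21 cells. Pdk4, Cyp4a10, Cyp4a14, Vnn1 and Fgf21, strongly induced in liver by PPAR-alpha agonists, had 0 counts, and Cpt1a, which admits fatty acids to mitochondria, was detected in 5 cells.

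Among the shared partners, Rxrb was the main retinoid X receptor of these cells. Rxrb (ENSMUSG00000039656, chromosome 17, 34031812 to 34038399) was detected in 19 cells (79.2%, interval 57.9 to 92.9) and Rxra (ENSMUSG00000015846, chromosome 2, 27676440 to 27762957) in 1. Rxrb ran from 0 CPM through a median of 50.6 CPM to 238 CPM in cell 19 and 200 CPM in cell 18, with a mean of 61.2 ± 62.7 CPM. All of cells 1, 9, 19 and 23 held Rxrb, and without them it was detected in 15 of 20 cells at 48.3 ± 50.9 CPM. Rxra reached 122 counts, or 56.6 CPM, in cell 18, the cell with the second highest Rxrb, and was 0 in the other 23 cells. Rxrg, the third form, was found in 1 cell, which also had Rxrb. Any retinoid X receptor was therefore detected in 19 cells, the same number as Rxrb alone.

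The receptors that pair with a retinoid X receptor differed widely in how often they were found. Nr1h2 (ENSMUSG00000060601, chromosome 7, 44549616 to 44553951), the sterol sensor that turns on cholesterol export, was detected in 18 cells (75.0%, interval 53.3 to 90.2). It ran from 0 CPM through a median of 41.8 CPM to 397 CPM in cell 23, with cell 2 next at 159 CPM. The mean was 63.7 ± 87.2 CPM, and 49.2 ± 51.8 CPM without cell 23. Cell 23 thus stood far above the rest, and it is 1 of the 4 cells with more myeloid or lymphoid than BFU-E markers. Without those 4 cells Nr1h2 was detected in 16 of 20 cells at 56.35 ± 51.92 CPM. The other LXR gene, Nr1h3, was detected in 2 cells.

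Thra (ENSMUSG00000058756, chromosome 11, 98740638 to 98769006), which encodes the form of the thyroid hormone receptor known for its action in erythroid cells, was detected in 11 cells. Its counts lay near the detection limit, with 7 cells at 1 to 4 counts, 4 at 5 to 9 and 7 at 10 or more, so that the number of cells was 18 at 1 count, 7 at 10 counts and 6 at 10 CPM. The level ran from 0 CPM through a median of 2.73 CPM to 86.9 CPM in cell 4 and 49.8 CPM in cell 9, with a mean of 11.4 ± 21.3 CPM. Thra is a gene of few high cells: cells 4, 6 and 9 held most of its counts. The exons of Thra overlap those of Nr1d1 on the opposite strand over 263 bases, 5.7% of its exons. The libraries keep no strand, so reads there cannot be told apart; Nr1d1 was detected in 6 cells, 4 of them with Thra.

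Rara (ENSMUSG00000037992, chromosome 11, 98927818 to 98974942) was detected in 4 cells. They were cells 8, 10, 16 and 20, with 35.7 CPM in cell 16 at the top, and the mean over all cells was 3.03 ± 8.06 CPM, or 1.61 ± 4.17 CPM without cell 16. All 4 cells also had Nr3c1. Rarg was found in 1 cell and Rarb had 0 counts throughout.

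The genes of TR2 and TR4 were found in part of the cells, TR4 in more than TR2. Nr2c1 (ENSMUSG00000005897, chromosome 10, 94148023 to 94197211) was detected in 7 cells, namely 4, 11, 12, 13, 16, 21 and 22, and in 11 cells at 1 count. It had a median of 0, a highest value of 81.7 CPM in cell 22, and a mean of 13.2 ± 23.1 CPM. In the detecting cells the median was 47.2 CPM, and no cell held 5 to 9 counts. Whether the other cells lacked the transcript was not tested. Nr2c2 (ENSMUSG00000005893, chromosome 6, 92091390 to 92174294) was detected in 12 cells, with a median of 2.81 CPM and highest values of 190 CPM in cell 22 and 105 CPM in cell 12. Its mean of 19.6 ± 43.2 CPM rests on cell 22, without which it was 12.2 ± 23.9 CPM.

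Exons of Nr2c2 overlap those of Mrps25, a mitochondrial ribosomal protein gene on the opposite strand, over 4590 bases, 30.7% of the exon length of Nr2c2. Mrps25 was detected in 23 cells, so reads of the shared stretch could be assigned to either gene or dropped. The cell with the most Nr2c2, cell 22, had 0 counts of Mrps25. Over the 24 cells the Spearman correlation of the pair was 0.036, and Pearson's r on log2(CPM + 1) was −0.36.

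Ncor1 (ENSMUSG00000018501, chromosome 11, 62316426 to 62458541) was the most evenly expressed of the 10 genes. It was detected in 22 cells (91.7%, interval 73.0 to 99.0) and had counts in all 24. It ran from 1.73 CPM in cell 4 through a median of 83.8 CPM to 161 CPM in cell 13, with a mean of 74.7 ± 43.7 CPM. The SD was 0.585 of the mean, the lowest ratio among the members, where Nr3c1 had 1.07 and Rxra 4.90. Cells 4 and 12 were the exceptions, with 3 and 4 counts.

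Levels of different genes can be compared only per length. On the TPM scale (counts per kilobase of exon, scaled to 1e6 per cell) Nr1h2 and Rxrb had higher means than Nr3c1. Nr1h2 averaged 49.5 ± 68.1 TPM, Rxrb 40.3 ± 41.6, Nr3c1 18.96 ± 20.4 and Ncor1 15.2 ± 8.92. Then came Nr2c1 with 7.48 ± 13.1 TPM, Thra with 6.58 ± 12.4, Nr2c2 with 3.38 ± 7.45, Rara with 1.82 ± 4.86, Rxra with 1.13 ± 5.54 and Ppara with 0. Neighbours in this order did not separate beyond their spread: Nr1h2 exceeded Rxrb in 12 cells and was lower in 11, Rxrb exceeded Nr3c1 in 14 and was lower in 9, and Nr3c1 exceeded Ncor1 in 10 and was lower in 14. The clearest step lay between Ncor1 and Nr2c1, with Ncor1 higher in 20 cells and lower in 4. Thra exceeded Nr2c1 in 15 cells and was lower in 7, although its mean was lower. With the longest transcript as length this pair changed places, at 9.29 TPM for Thra and 6.94 for Nr2c1, and Nr2c2 stood at 4.97 TPM. Without cells 1, 9, 19 and 23, in each of which Rxrb exceeded Nr3c1, the leading means lay closer together. Over the 20 cells left they were 43.6 ± 39.9 TPM for Nr1h2, 31.7 ± 33.4 for Rxrb, 22.4 ± 20.7 for Nr3c1 and 14.6 ± 9.31 for Ncor1.

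**Figure D2:**
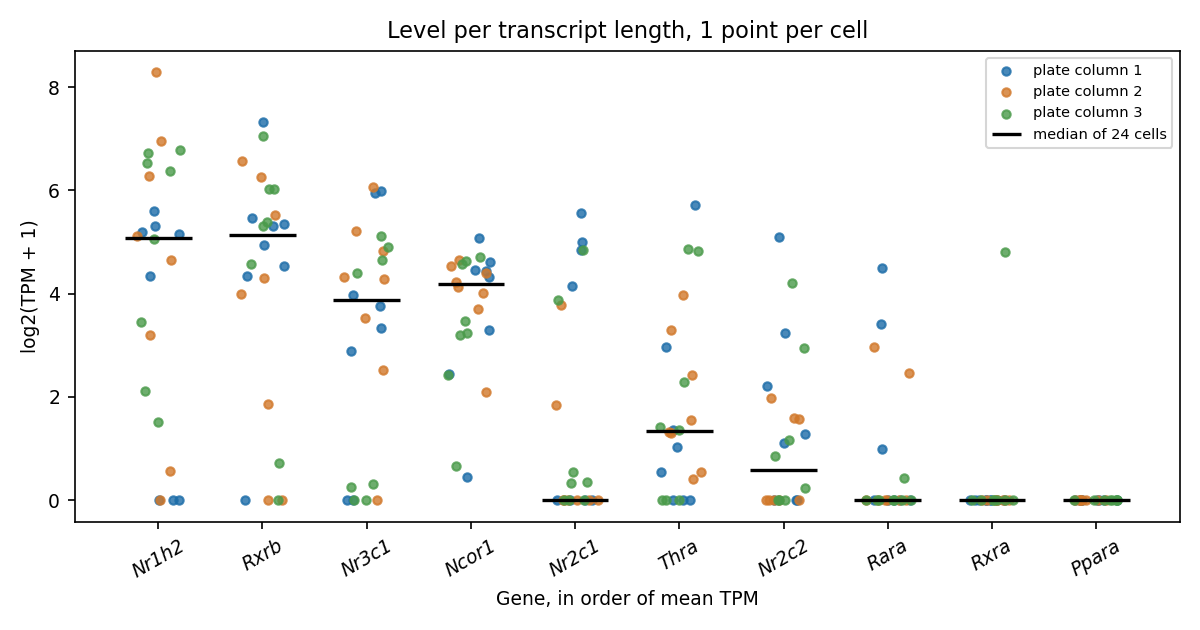
Level per length of the 10 genes, as log2(TPM + 1); each point is a cell, coloured by plate column, and the line is the median of the 24 cells. Nr1h2, Rxrb, Nr3c1 and Ncor1 have the highest medians and wide spreads. Thra and Nr2c2 have low medians above 0 (1.545 and 0.494 TPM), and most cells lie at 0 for Rxra, Rara and Nr2c1.

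Single cells held 3 to 7 of the 10 genes, with a median of 4. There were 3 cells with 3 genes, 10 with 4, 6 with 5, 3 with 6 and 2 with 7. The number per cell had a Spearman correlation of 0.42 with total counts and 0.25 with the number of genes detected.

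The receptor and corepressor often met in the same cell, about as often as their separate shares would give. Nr3c1 and Ncor1 were both detected in 16 cells, where the product of their shares is 15.6 cells. Nr3c1 and Rxrb met in 13 cells (product 13.5) and Nr3c1 and Nr1h2 in 13 (product 12.8). With Nr3c1 in 17, Ncor1 in 22, Rxrb in 19 and Nr1h2 in 18 cells, these numbers had little room to differ from the products. Nr3c1, Rxrb, Nr1h2 and Ncor1 were all found in 10 cells. Cell 22 was the single cell with neither Nr3c1 nor Rxrb, and it had the highest Nr2c1 and Nr2c2.

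For the heterodimers, a retinoid X receptor met Nr1h2 in 15 cells, Thra in 6 and Rara in 3, and met at least 1 of these partners in 16. Rxrb and Nr1h2 had a product of 14.2 cells. In 5 cells, 6, 8, 11, 15 and 22, a partner receptor was detected and no retinoid X receptor was, and Thra was detected in each of these 5. Rxrb and Thra thus met in 6 cells, where the product of their shares is 8.71, and no cell lacked both. At counts as low as those of Thra, a gene below 5 counts was not detectable and may still be present.

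TR2 and TR4 act as a heterodimer, and their genes met in 5 cells (11, 12, 13, 16 and 22), where the product of shares is 3.5. At 1 count the number was 8. Their Spearman correlation over 24 cells was 0.45, and it was 0.66, 0.21 and 0.30 within plate columns 1, 2 and 3. It was 0.60 without cells 1, 9, 19 and 23. Either gene was detected in 14 cells, and 9 cells had Nr3c1 with neither of them. Nr3c1 and Nr2c2 met in 7 cells (product 8.5), with a correlation of −0.45 that was −0.60, 0.11 and −0.53 by plate column.

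**Figure D3:**
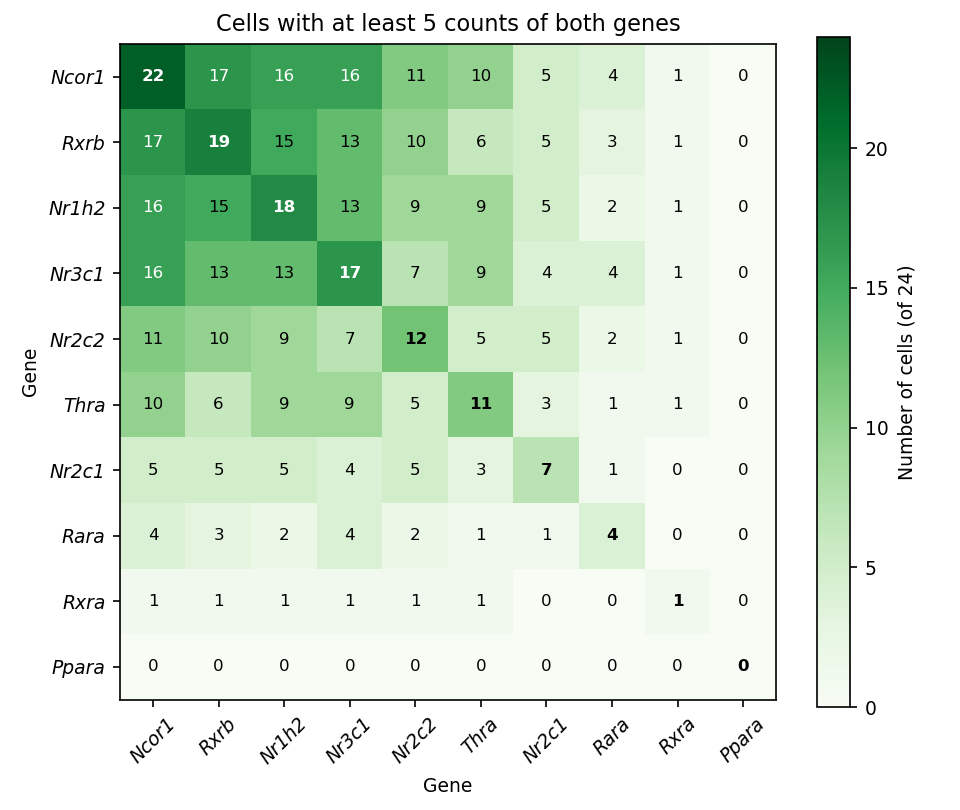
Number of cells of 24 in which both genes of a pair had at least 5 counts; the diagonal is the number of cells with the gene. Rxrb and Ncor1 meet in 17 cells, Nr3c1 and Ncor1 in 16, and Ppara meets no gene.

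Levels of the widely detected members did not follow each other. The 10 pairs among Nr3c1, Rxrb, Nr2c2, Nr1h2 and Ncor1 had Spearman correlations from −0.45 to 0.24 over the 24 cells, which share a plate, amplification and depth differences. Without cells 1, 9, 19 and 23 the same pairs ran from −0.53 to 0.37. Within plate columns of 8 cells the same pairs scattered widely. Rxrb and Nr1h2, with 0.083 over all cells, gave −0.83, 0.75 and 0.19. With counts this sparse, these values are no finding.

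The machinery that serves the receptors was present in most cells, more so for chaperones and corepressors than for coactivators. All 18 chaperone and import genes of the glucocorticoid receptor were detected in at least 12 cells. The share in at least 12 cells was 100% for these, 83.3% for corepressors and 53.3% for coactivators, against 26.1% of protein-coding genes. Hsp90ab1 averaged 4652 ± 638 CPM, Hspa8 3152 ± 1331 and Hsp90aa1 2220 ± 683, each in 24 cells. Of 12 further corepressor genes, 10 were detected in at least 12 cells. Hdac2 averaged 319 ± 185 CPM, Hdac1 172 ± 101 and Hdac3, the catalytic partner of NCOR1, 164 ± 105. Of 15 coactivator genes 8 reached that number, led by Smarca4 (141 ± 79.7 CPM), the motor of a chromatin remodeller, Med1 (96.8 ± 74.9), the receptor-binding Mediator subunit, and Prmt1 (57.1 ± 39.1), an arginine methyltransferase. Ncoa1, the founding steroid receptor coactivator, was found in 1 cell and Ppargc1a, a coactivator of PPARs, in none.

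No other nuclear receptor was as widely detected as the 5 leading members. Of the 40 other nuclear receptor genes, 0 were detected in at least 12 cells, 14 in 1 to 11 and 26 in none, and 23 had no count at all. Among protein-coding genes 26.1% reached at least 12 cells and 49.2% were detected in none. The most frequent were Esrra, an orphan regulator of mitochondrial genes, in 7 cells, the clock repressor Nr1d1 in 6 and Nr2f6 in 5. The mineralocorticoid receptor Nr3c2, which also binds glucocorticoids, had 0 counts in all cells.

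**Figure D4:**
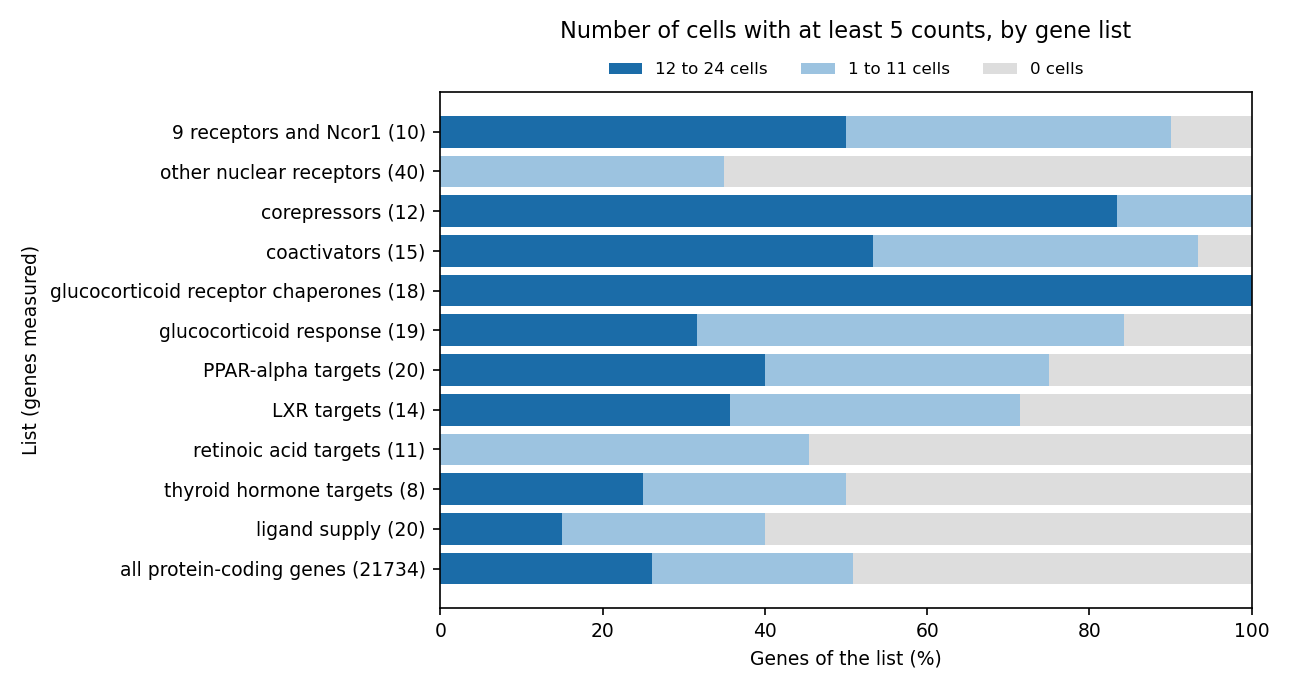
Share of each gene list detected in 12 to 24, in 1 to 11 and in 0 of the 24 cells, with all protein-coding genes for reference. Chaperones reach 100% in at least 12 cells and corepressors 83.3%, while other nuclear receptors and retinoic acid targets are at 0% against 26.1% of protein-coding genes.

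Known targets of each receptor were read for the same cells, and the share of each list in at least 12 cells is given beside the 26.1% of all protein-coding genes: 31.6% for the glucocorticoid response, 35.7% for LXR, 25% for thyroid hormone and 0% for retinoic acid. Of 19 glucocorticoid response genes 6 were detected in at least 12 cells: the metallothioneins Mt1 and Mt2, Fkbp5, Txnip, Sesn1 and Zfp36l2, the last an RNA decay factor needed for BFU-E self-renewal. Mt1 averaged 470 ± 376 CPM, Txnip, a regulator of glucose uptake, 111 ± 112 and Sesn1, a stress protein, 96.4 ± 124. Tsc22d3, the leucine zipper gene classically induced by glucocorticoids, was detected in 6 cells, and Tat, Bcl6 and Pdk4 in none. Of 14 LXR targets 5 reached that number, led by Apoe (1364 ± 1306 CPM), Lpcat3 (144 ± 116), a phospholipid remodelling enzyme, and Abcg1 (122 ± 139), a cholesterol exporter. Of 11 retinoic acid targets 0 did, and of 8 thyroid hormone targets 2 did, Gpd2 at 60.3 ± 68.7 CPM and Atp2a2 at 36.7 ± 38.6. All these genes have other regulators, so presence is a level and not a readout of the receptor.

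Of 20 genes that supply or remove ligands, 12 were detected in no cell, where 49.2% of protein-coding genes were, and 3 were detected in at least 12 cells, which is 15% against 26.1%. The 3 were Fabp5, a carrier of fatty acids and retinoic acid, at 163 ± 83.3 CPM, Slc16a10, a transporter of aromatic amino acids and thyroid hormone, at 51.1 ± 56.3, and H6pd, at 41.5 ± 47.3, which makes the cofactor for glucocorticoid activation. Hsd11b1, which activates glucocorticoids with that cofactor, and Hsd11b2, which inactivates them, had 0 counts in every cell.

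Across cells, Nr3c1 went with some of its known partners and targets and not with others. Over 5628 annotated genes detected in at least 12 cells, predicted models and pseudogenes left out, the median Spearman correlation with Nr3c1 was 0.065 and 59.8% of genes were above 0. Of the 6 glucocorticoid response genes in that range 3 were above 0: Mt2 (0.69), Mt1 (0.63) and Fkbp5 (0.63), a co-chaperone of the receptor that is itself induced by it. Txnip (−0.013), Zfp36l2 (−0.22) and Sesn1 (−0.23) were not, and the median of the 6 was 0.31. Of the 18 chaperone genes 17 were above 0 with a median of 0.23, led by Hsp90aa1 (0.64). Of the 9 BFU-E markers 6 were above 0, with a median of 0.26. They ran from Klf1, an activator of erythroid genes, at 0.57 to Kit at −0.21 and Zfp36l2 at −0.22.

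The cells with low Nr3c1 can be seen in the values. Fkbp5 ran from 0 CPM through a median of 34.5 CPM to 307 CPM in cell 2, and was detected in 16 cells, 14 of which also had Nr3c1. Mt2 ran from 0 CPM through a median of 14.9 CPM to 131 CPM in cell 11, and 13 of its 14 detecting cells had Nr3c1. Both genes were scarce in the same plate rows as Nr3c1: Fkbp5 was detected in 2 and Mt2 in 1 of 6 cells in rows G and H, against 14 and 13 of 18 in rows A to F. Mt1 ran from 1.62 CPM in cell 19 through a median of 482 CPM to 1330 CPM in cell 11. Mt1 and Mt2 are similar copies whose reads the counting could split, so their separate values are uncertain.

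These correlations moved with plate position and with the choice of cells. Within plate columns 1, 2 and 3 Nr3c1 gave 0.85, 0.33 and 0.80 with Mt2, 0.90, 0.048 and 0.72 with Mt1, 0.90, 0.84 and 0.078 with Fkbp5 and 0.84, 0.40 and 0.52 with Hsp90aa1. Column 2 lay well below the value over all cells for Mt2, Mt1 and Hsp90aa1, and column 3 did for Fkbp5. Without plate rows G and H they were 0.52, 0.47, 0.43 and 0.61 in the same order, and without cells 1, 9, 19 and 23 they were 0.64, 0.45, 0.76 and 0.45. Klf1 gave 0.75, 0.071 and 0.61 by column, 0.36 without rows G and H and 0.37 without those 4 cells. The levels of Mt2, Mt1, Fkbp5 and Hsp90aa1 also had Spearman correlations with total counts of 0.43, 0.61, 0.50 and 0.43, beside 0.65 for Klf1 and 0.46 for Nr3c1. Pearson's r on log2(CPM + 1) was 0.65, 0.68, 0.59 and 0.59. It was 0.61, 0.67, 0.48 and 0.59 without 2 of the 5 cells at 0 for Nr3c1. Those 5 cells tie as farthest from the median of Nr3c1, so which 2 were left out was arbitrary. The part of plate position, depth and cell identity in these relations was not tested.

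**Figure D5:**
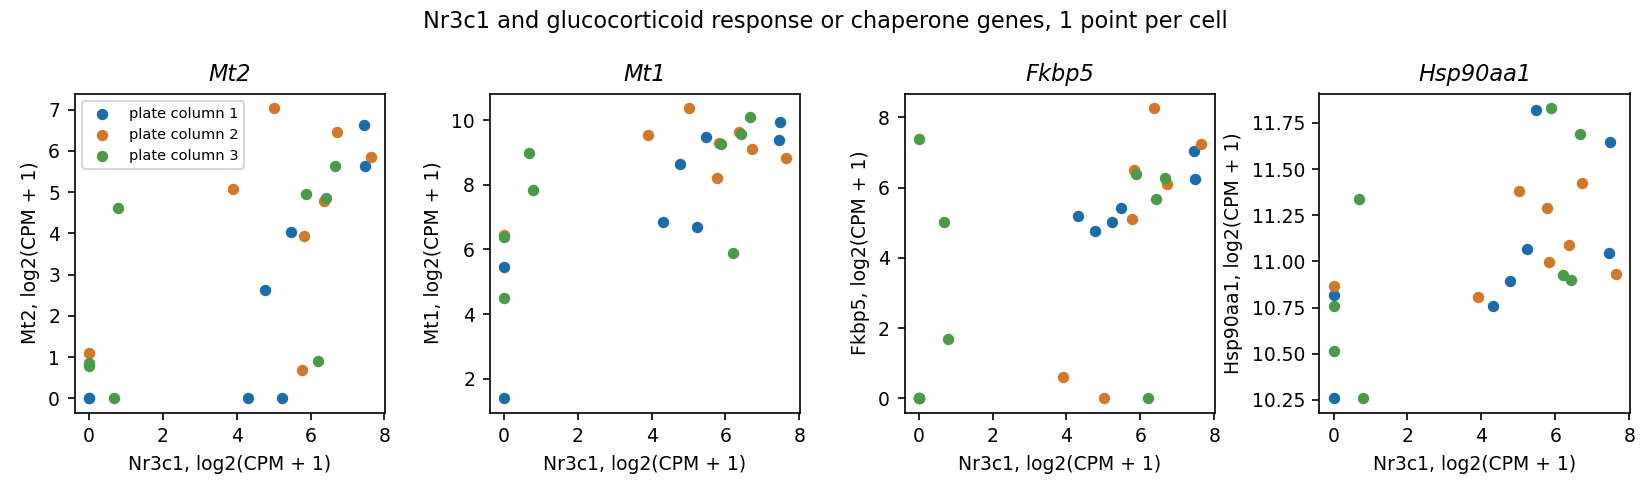
Level of Mt2, Mt1, Fkbp5 and Hsp90aa1 (vertical axes) against Nr3c1 (horizontal axes), both as log2(CPM + 1), with each cell a point coloured by plate column. The cells at 0 for Nr3c1 lie low for Mt2 and Fkbp5, with an exception in cell 9 for Fkbp5, and spread within columns differs between genes.

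Nr1h2 showed no such relation to LXR targets. The 5 targets detected in at least 12 cells had a median correlation of −0.15 with it, against 0.0042 over the 5628 genes, and ran from −0.42 for Lpcat3 to 0.26 for Apoe.

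The genes most like each receptor over the 24 cells were picked as the highest of 5628, so their values are a description. For Nr3c1 they included Selenoi (Spearman correlation 0.74), Mns1 (0.73), Necap2 (0.72) and Tango2 (0.71). Qrich1 (0.70) and Ptpre (0.69) came first for Rxrb, Amdhd2 (0.74) and Xab2 (0.69) for Nr2c2, Btbd9 (0.68) and Drg1 (0.68) for Nr1h2, and Rdh13 (0.69) and Polg (0.65) for Ncor1. Correlations of the opposite sign reached similar sizes, with −0.73 for Nr3c1 and Ep400.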

How the data were processed

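The deposited table holds the authors' unnormalized read counts by gene and cell (24 cells). Per the submitters' processing notes, STAR 2.4 and featureCounts were used with GRCm38. Sources used here state neither the annotation release, the counting options nor the read length, and the libraries are non-stranded per the labels' protocols. Of 49585 gene rows, 49326 matched GENCODE M21 (GRCm38), which gave symbols, exon lengths and overlaps. Unmatched rows held 0.0295% of counts. The table held 0 columns of other samples.

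CPM used the total over all rows of a cell, and TPM the exon union length. A gene was detected at 5 counts, correlations used log2(CPM + 1), and lists were counted at 12 cells. Python 3.11.15, scipy 1.17.1, edgeR 4.0.16 and DESeq2 1.42.0 (the last 2 for alternative scaling) were used, and the statistics were tested on simulated data. Exact binomial intervals and the floor of 3 counts cover counting error only, since PCR reads without molecular identifiers are not independent molecules.

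The members and gene lists were chosen with earlier results of these data known. All members were named. In each list the 3 genes of highest mean CPM among those in at least 12 cells were named, and for likeness the 5 genes of highest Spearman correlation with Nr3c1 and the 2 for each other member in at least 12 cells, predicted models and pseudogenes passed over; a gene that this rule names is not reported here. Other genes named, Mt2, Fkbp5, Klf1 and the genes listed at 0 counts among them, were chosen after their values were seen.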

Additional observations from a re-analysis of the deposited data

How the results depend on the processing

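Alternatives were run for detection, levels, leading co-detected pairs, correlations between members, those of Nr3c1 with 5 genes and of Nr2c1 with Nr2c2, and list counts; correlations of Nr1h2 with LXR targets, the other list correlations and the likeness ranks are given at the main settings only. Depending on the result these were detection at 1 count, 10 counts or 10 CPM, reads thinned to 876983 counts per cell, edgeR TMM, DESeq2 or a total without mitochondrial and ribosomal RNA genes, longest-transcript lengths, other pseudocounts, lists limited to genes with a count, single plate columns, and leaving out the highest cell, plate rows G and H or cells 1, 9, 19 and 23. Of all these values 248 stayed within their limits (1.5 times for a count, 1 SD over cells for a level, the 95% interval for a correlation) and 24 moved beyond them. These limits are wide, so the tally is no measure of robustness. Leaving out the highest cell cannot move a mean by 1 SD over 24 cells, and Rxra stayed within its limit while falling from 2.36 to 0 CPM. The correlation of Nr3c1 and Rxrb also stayed within, at −0.20 over all cells and 0.092 without cells 1, 9, 19 and 23. Detection at 1 count put Nr2c1 and Nr2c2 together in 8 cells, against 5. The detection rule also moved the number of cells with Thra (6 to 18) and with Nr2c1 (11 at 1 count), and 17 correlations moved within single plate columns. Restricting lists to genes with a count raised the share in at least 12 cells to 40% for thyroid hormone targets and 30% for ligand supply. The 26.1% of protein-coding genes was not restricted in this way, so these shares cannot be set against it. No scaling, thinning, length or pseudocount that was run moved a value beyond its limit. The values by plate column for the genes beside Nr3c1, without plate rows G and H, and without cells 1, 9, 19 and 23 were chosen after seeing the data. No paired analysis was possible because there is 1 group. At these depths a transcript under 1.39 to 3.42 CPM cannot be told from 0 in a single cell.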
